A study of Arabidopsis thaliana with 45 samples.

Results

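NTL8 and 8 other Arabidopsis genes encode NAC transcription factors that sit in a membrane until they are released, and their transcripts were followed over 16 groups of imbibed seeds. NTL8 (AT2G27300) was chosen on measured values, namely its difference between non-dormant and dormant seeds imbibed in water for 6 h. The 8 others were selected by family membership, with earlier results of these data known: NTL6 (AT3G49530, also NAC062), NTL9 (AT4G35580, also CBNAC), NTM1 (AT4G01540), NTM2 (AT4G01550, also NAC069), ANAC060 (AT3G44290), ANAC089 (AT5G22290), ANAC017 (AT1G34190) and ANAC013 (AT1G32870). Each of the 9 had a probe set of its own among the 27827 on the array. NTM1 and NTM2 are neighbours on the chromosome.

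The seeds were of the line NILDOG1-Cvi in the Landsberg erecta background, a near-isogenic line for the dormancy gene DELAY OF GERMINATION 1, and all 16 groups share that genotype. Non-dormant and dormant seeds were imbibed in cordycepin, an inhibitor of transcription, or in water, for 24 h or 6 h, and both polysomal and total RNA were taken. Of the 45 arrays, 21 held polysomal and 24 total RNA. There were 3 arrays in 13 groups and 2 arrays in 3 groups, namely polysomal RNA at 24 h from non-dormant seeds in cordycepin, dormant seeds in cordycepin and dormant seeds in water. Per the labels, 8 plants were bulked for a replicate; the sources used here do not say how seeds became non-dormant. The labels conflict in places (1 protocol speaks of dry seeds, and the molecule field names total RNA throughout), and the sample titles were followed.

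NAC proteins bind DNA through a conserved N-terminal domain. In the membrane-bound members a C-terminal transmembrane segment keeps the protein at the plasma membrane, the endoplasmic reticulum or another membrane, and cleavage frees the part that enters the nucleus. Their transcript level is therefore only 1 layer of their control, and the arrays did not measure cleavage. In seeds, NTL8 is known for restraining germination under salt, as a gene repressed by gibberellin, and NTM2 for linking salt and auxin in the same process. ANAC060 and ANAC089 dampen the sensitivity of seedlings to sugars, and ANAC017 and ANAC013 carry stress signals from mitochondria to the nucleus.

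Values are log2 levels, so a difference of 1 is a 2-fold difference, and they compare arrays for 1 probe set at a time. A difference was called at an adjusted p under 0.05 in limma, corrected over all probe sets. Every value is relative to the other transcripts of its array. Array medians lay between 3.86 and 4.32 and lower quartiles between 2.24 and 2.92. NTM2 was under its array's median on 37 of 45 arrays and NTM1 on 23, NTL8 was so on 1, and the other 6 genes on none. The storage genes CRA1, CRU3, OLEO1, SESA1 and SESA3, which mark the embryo, and the endosperm gene EPR1 were above the median on all 45 arrays, while the seed coat markers BAN, TT10, TT12 and MUM2 and the endosperm regulator ZOU were above it on 0.

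NTL8 separated the seed kinds on every array. Over the 23 arrays of non-dormant seeds it lay between 6.70 and 10.003 (median 8.10), and over the 22 of dormant seeds between 3.93 and 5.46 (median 4.89). Since the gene was chosen for this difference, its values between seed kinds are given without a test.

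In polysomal RNA at 6 h, NTL8 read 9.95, 9.88 and 10.003 in non-dormant seeds in water, against 4.88, 3.95 and 4.88 in dormant seeds in water. In total RNA at 6 h it read 9.46, 9.59 and 9.48 in non-dormant seeds, against 4.39, 5.46 and 5.01 in dormant seeds. These are the choosing groups, with differences of 5.37 ± 0.25 and 4.56 ± 0.25 (SE), or 41.4-fold and 23.6-fold, and the dormant arrays varied far more among themselves than the non-dormant ones. In cordycepin at 6 h the polysomal values were 9.15, 8.87 and 9.12 in non-dormant and 4.64, 5.19 and 5.18 in dormant seeds, a difference of 4.04 ± 0.25. The matching total RNA values were 8.38, 8.10 and 8.36 in non-dormant and 5.01, 4.65 and 4.89 in dormant seeds, a difference of 3.43 ± 0.25. In cordycepin, too, no dormant array came near a non-dormant one.

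At 24 h the gap was smaller. In water, polysomal RNA gave 7.59, 7.80 and 7.33 in non-dormant and 4.69 and 4.32 in dormant seeds, and total RNA gave 7.16, 7.49 and 6.996 in non-dormant and 4.38, 5.37 and 4.93 in dormant seeds. The differences were 3.07 ± 0.28 and 2.32 ± 0.25. In cordycepin, polysomal RNA gave 7.35 and 7.40 in non-dormant and 4.73 and 3.93 in dormant seeds (difference 3.04 ± 0.30). The smallest of the 8 differences stood in total RNA in cordycepin at 24 h, 1.68 ± 0.25 or 3.20-fold, with 6.70, 6.72 and 6.70 in non-dormant and 5.20, 4.89 and 4.99 in dormant seeds. The plot of NTL8 by group shows dormant seeds at a similar low level in all settings, and non-dormant seeds lower at 24 h than at 6 h.

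**Figure D1:**
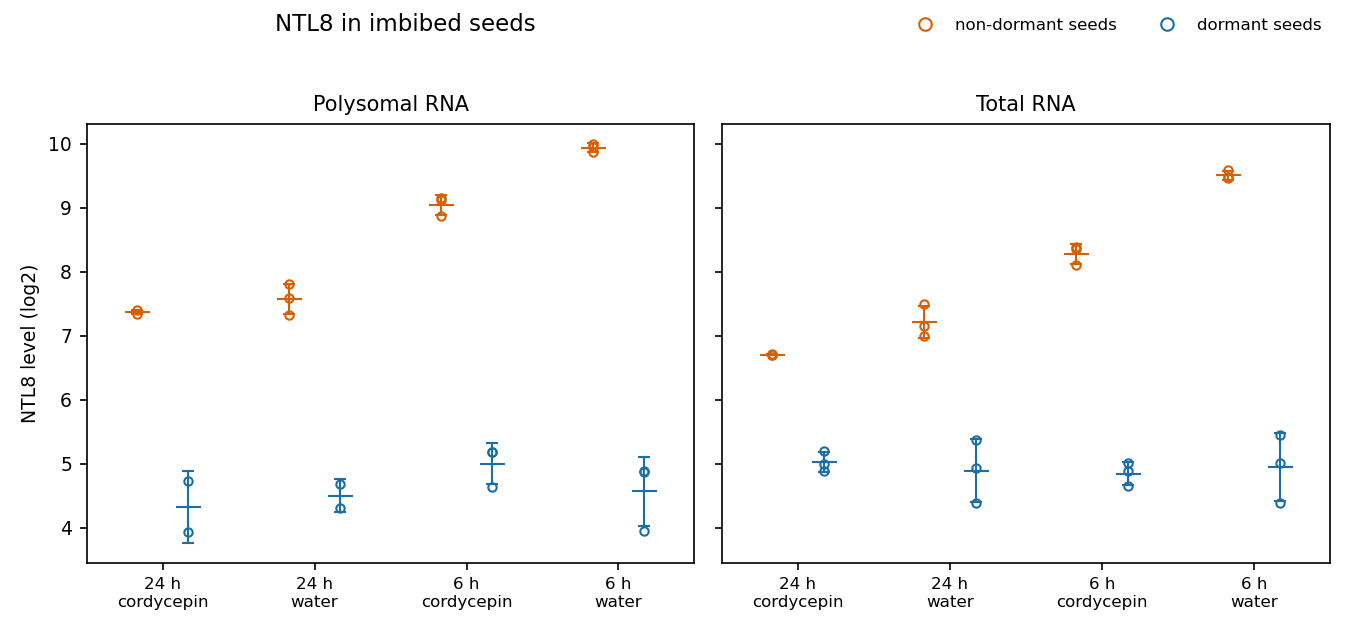
NTL8 level (log2, vertical axis) in polysomal RNA (left panel) and total RNA (right panel) for each imbibition time and treatment, with non-dormant seeds in orange and dormant seeds in blue. Circles are arrays, long ticks group means and bars ± 1 SD (2 or 3 arrays a group); all dormant arrays lie between 3.93 and 5.46 and all non-dormant arrays between 6.70 and 10.003.

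Ordered by mean, the 16 groups of NTL8 began with the 4 groups of non-dormant seeds at 6 h, each with arrays apart from the next: polysomal RNA in water (9.94 ± 0.06, SD, n = 3), total RNA in water (9.51 ± 0.07), polysomal RNA in cordycepin (9.04 ± 0.15) and total RNA in cordycepin (8.28 ± 0.15). Next came non-dormant seeds at 24 h, with polysomal RNA in water at 7.57 ± 0.24, polysomal RNA in cordycepin at 7.37 ± 0.03 (n = 2) and total RNA in water at 7.22 ± 0.25, whose neighbours overlapped, and total RNA in cordycepin at 6.71 ± 0.01 apart from them. The 8 dormant groups followed with means from 5.03 down to 4.33, and every neighbouring pair among them overlapped. Over the whole order 9 of 15 neighbouring pairs overlapped. The range of the 16 means, 5.61, was wider than that of 99.9% of the probe sets, which restates the choice of the gene.

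Of 14 comparisons of NTL8 that did not use the arrays it was chosen on, 3 passed the test in limma. Of all probe set differences in time, over water and cordycepin, 15% were called lower and 16.3% higher in non-dormant seeds. In dormant seeds these shares were 7.18% and 8.7%. Between RNA types 9.95% were called higher in polysomal RNA and 10.2% lower. In cordycepin the NTL8 level in non-dormant seeds fell with time. In polysomal RNA it fell to 7.37 at 24 h, against 9.04 at 6 h (difference -1.67 ± 0.28, SE, adjusted p = 8.2e-06). In total RNA it fell to 6.71 at 24 h, against 8.28 at 6 h (-1.58 ± 0.25, adjusted p = 2.95e-06). No array at 24 h reached any array at 6 h. In dormant seeds in cordycepin the same comparison was not called, at -0.67 ± 0.28 in polysomal RNA (adjusted p = 0.11) and 0.18 ± 0.25 in total RNA (adjusted p = 0.70). The polysomal value rests on 2 arrays at 24 h that lay apart, at 4.73 and 3.93, so a fall there is not excluded. In water, where the 6 h arrays had chosen the gene, the differences were -2.37 and -2.29 in polysomal and total RNA of non-dormant seeds and -0.07 and -0.05 in dormant seeds, given without a test.

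Cordycepin at 24 h gave no called difference in NTL8, with -0.20 ± 0.28 and -0.51 ± 0.25 in polysomal and total RNA of non-dormant seeds (limma adjusted p = 0.91 and 0.36) and -0.17 and 0.13 in dormant seeds. Over all probe sets 0.959% were called higher and 0.917% lower there. Of the 4 NTL8 differences 1 had an unadjusted p under 0.05, beside 12222 of 111308 over all probe sets. The 95% intervals in non-dormant seeds reached down to -0.76 and -1.01, so lower levels of up to that size are not excluded. At 6 h, without a test, NTL8 stood at 9.04 in cordycepin against 9.94 in water in polysomal RNA of non-dormant seeds (-0.90 ± 0.25) and at 8.28 against 9.51 in total RNA (-1.23 ± 0.25). No array of the cordycepin groups reached one of the water groups there. In cordycepin the seed kinds stood apart at both times, as they did in water.

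Polysomal RNA held more NTL8 than total RNA in non-dormant seeds in cordycepin at 6 h (0.76 ± 0.25, adjusted p = 0.020), and the other 5 comparisons tested were not called. This call depends on single arrays and on the scaling: it stood at 0.71 (adjusted p = 0.066) and 0.73 (0.057) without the first or the third polysomal array of that group, at 0.67 (0.074) without its second total RNA array, and at 0.48 (0.17) after cyclic loess. In dormant seeds in cordycepin at 24 h the fitted difference ran the other way, -0.70 ± 0.28, and was not called (adjusted p = 0.087).

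Over the 16 group means, 22 probe sets had a Pearson correlation above 0.9 with NTL8. Those with a symbol and the highest correlation included MDH (AT3G47520, a malate dehydrogenase, r = 0.949), the DOF factor OBP2 (0.948), GAE2 (an epimerase that makes UDP-galacturonate for pectin, 0.947), MAPKKK20 (a MAP kinase kinase kinase, 0.943) and the RNA helicase DRH1 (0.935). Their group means spanned 1.20, 2.35, 1.21, 3.39 and 0.96 in that order, against 5.61 for NTL8. The lowest mean of OBP2, 2.31, lay within the range of the lower quartiles of the arrays. The points are group means of the same 45 arrays, and a gene high in non-dormant seeds at 6 h will correlate this way. The other 8 membrane-bound genes had lower values: their correlations with NTL8 over the same means ran from -0.28 (NTM2) to 0.51 (NTM1).

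The 8 other genes were lower at 24 h than at 6 h wherever time was called. In non-dormant seeds 28 of their 32 differences between 24 h and 6 h were called, and all 28 were lower at 24 h, where 15% of all probe set differences were lower and 16.3% higher. In dormant seeds 19 of 32 were called and again all 19 were lower at 24 h, where 7.18% of all were lower and 8.7% higher. The median difference of the 8 genes was -1.19 in non-dormant and -0.54 in dormant seeds, beside -0.09 and -0.04 over all probe sets. NTL6, NTL9 and ANAC013 were lower at 24 h in each of the 8 comparisons, as were 2.38% of all probe sets. In bulk seeds, fewer cells of a type and less RNA per cell cannot be told apart.

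ANAC013, which binds a promoter element shared by genes of mitochondrial stress, had the largest fall of the 8 genes in 6 of the 8 comparisons. In non-dormant seeds in cordycepin NTM1 fell further, by 2.04 in polysomal and 1.69 in total RNA. NTL6 also fell further there in polysomal RNA, by 1.73. In total RNA in water ANAC013 read 7.80, 7.89 and 8.04 in non-dormant seeds at 24 h, against 10.40, 10.46 and 10.29 at 6 h, a difference of -2.48 ± 0.21 (SE, limma adjusted p = 2.7e-12) or 5.56-fold. In dormant seeds it read 8.30, 8.19 and 8.30 at 24 h, against 10.01, 9.98 and 9.69 at 6 h (-1.63 ± 0.21). Its 8 differences ran from -2.48 to -1.26, and the arrays of the 2 times never overlapped. ANAC017, its upstream partner in the same signalling and a protein of the endoplasmic reticulum, fell less, by 1.11 to 0.93 on the log2 scale in the 4 comparisons in non-dormant seeds and by 0.72 to 0.46 in 3 of 4 in dormant seeds. In dormant seeds in cordycepin its total RNA difference of -0.39 was not called.

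NTL6, a factor released under cold that drives pathogenesis-related genes, read 6.49, 6.55 and 6.60 in total RNA of non-dormant seeds in water at 24 h, against 8.26, 8.29 and 8.12 at 6 h (-1.67 ± 0.19, adjusted p = 2.5e-09). Over the 8 comparisons it fell by 1.73 to 0.67. NTL9, a calmodulin-binding member that acts in immunity, read 7.47, 7.26 and 7.36 in the same seeds at 24 h, against 8.97, 9.11 and 8.90 at 6 h (-1.63 ± 0.15, adjusted p = 4.4e-11, 3.10-fold). In dormant seeds NTL9 read 8.27, 8.46 and 8.44 at 24 h, against 8.88, 8.996 and 8.77 at 6 h, a smaller fall of 0.49. The 4 falls of NTL9 lay between 1.71 and 1.30 in non-dormant seeds and between 0.72 and 0.49 in dormant seeds.

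**Figure D2:**
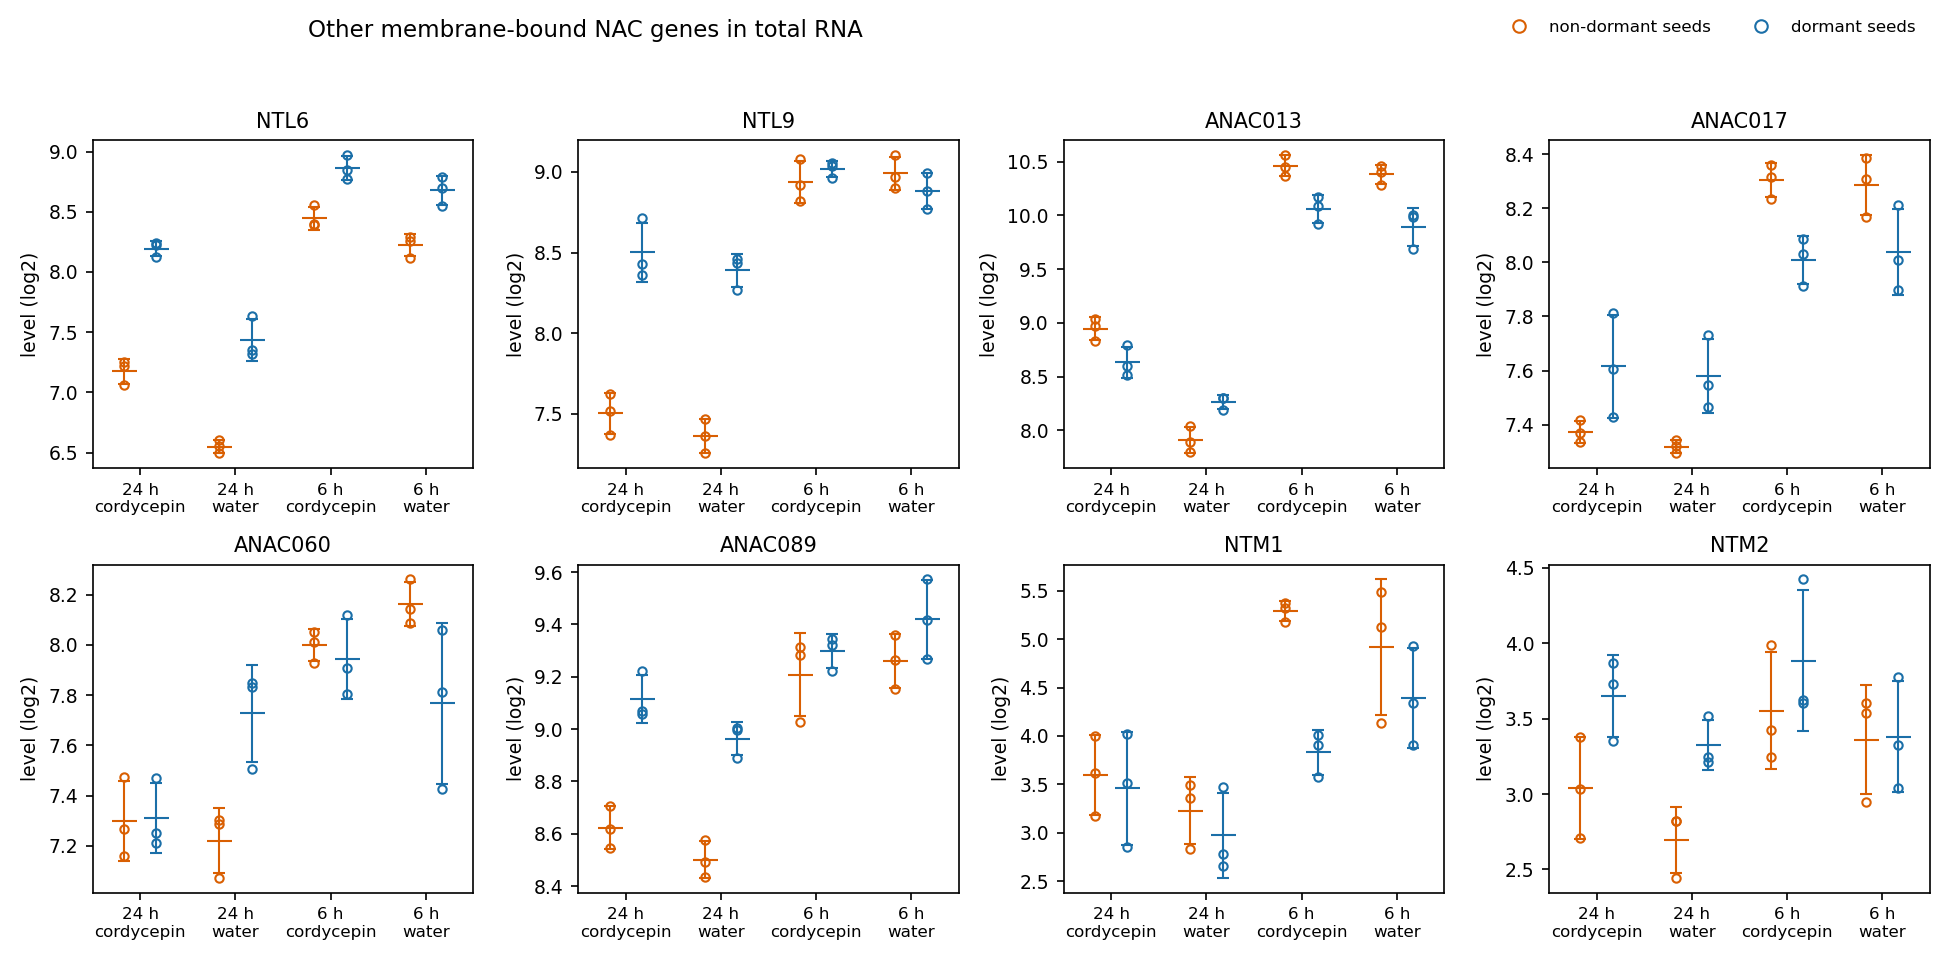
Levels (log2, vertical axes, each with its own range) of the 8 other genes in total RNA for each time and treatment, with non-dormant seeds in orange and dormant seeds in blue. Circles are the 3 arrays of a group, long ticks means and bars ± 1 SD; ANAC013 and NTL6 are lower at 24 h in both seed kinds, and NTL9 is lowest in non-dormant seeds at 24 h.

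The sugar-response genes moved less. ANAC060 was lower at 24 h in all 4 comparisons in non-dormant seeds (-0.94 to -0.70) and in both cordycepin comparisons in dormant seeds (-0.82 and -0.63), and its difference in total RNA of dormant seeds in water was -0.04. ANAC089 was lower in the 4 comparisons in non-dormant seeds (-0.89 to -0.58) and in 1 of 4 in dormant seeds. NTM1, a regulator of cell division under cytokinin, was lower in all 4 in non-dormant seeds (-2.21 to -1.69) and in total RNA of dormant seeds in water (-1.42 ± 0.37, adjusted p = 0.0048), although at 24 h it was near or under the array median. NTM2 had no called difference, and its 8 values lay between -0.66 and 0.24.

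Of the 47 calls in time, 10 were lost when certain single arrays were left out. For NTL9 in dormant seeds in cordycepin, the polysomal difference of -0.57 became -0.36 without the second array at 24 h and -0.55 without the third at 6 h, and the total RNA difference of -0.52 became -0.45 and -0.48 without the second and the third arrays at 24 h. Its total RNA difference in dormant seeds in water became -0.44 without the first array at 24 h or the second at 6 h. ANAC017 in dormant seeds in water was lost in polysomal RNA without the first array at 24 h (-0.34, against -0.55 with it) or the third at 6 h (-0.53), and in total RNA without the first (-0.40) or second (-0.44) array at 24 h or the second at 6 h (-0.37). ANAC060 in dormant seeds in cordycepin was lost in polysomal RNA without the second array at 24 h (-0.60) and in total RNA without the first at 6 h (-0.54). The 3 calls of ANAC089 with an adjusted p over 0.01 were lost without single arrays. In polysomal RNA of non-dormant seeds in cordycepin its value then lay between -0.54 and -0.48, without the second array at 24 h or the first or the third at 6 h. In total RNA of the same seeds it lay between -0.55 and -0.53, without the third array at 24 h or the second or the third at 6 h. In polysomal RNA of dormant seeds in water it lay between -0.70 and -0.49, without either array at 24 h or the first or the third at 6 h.

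Between seed kinds 3 of 32 differences of the 8 genes were called at 6 h and 9 of 32 at 24 h. At 6 h non-dormant seeds were higher in 2 of 32 differences and lower in 1, beside 2.31% and 2.25% of all probe set differences. An unadjusted p under 0.05 was reached by 12 of the 32, beside 17715 of 111308 over all probe sets. At 24 h non-dormant seeds were higher in 0 of 32 and lower in 9, beside 9.61% and 7.62%. These 9 belonged to NTL6, NTL9 and ANAC060. The model had no term for replicate number. With a replicate block within RNA type more differences between seed kinds were called, as given under the processing below. Some genes used as markers of tissues also differed in level between the seed kinds at 24 h, and whether tissue content differed was not tested. The mean level of the 5 embryo storage genes lay between 10.06 and 10.91 over the non-dormant groups and between 11.47 and 11.80 over the dormant groups, and that of the 5 endosperm genes between 7.53 and 7.91 over the non-dormant and between 5.30 and 5.99 over the dormant groups. At 6 h the ranges were 11.58 to 12.03 and 11.74 to 12.05 for the embryo, and 5.30 to 5.75 and 5.19 to 5.35 for the endosperm. Over single arrays EXPA2 ran from 1.75 to 8.58 and MAN7 from 3.43 to 8.89, while ZOU stayed between 2.29 and 3.85. Of the 40 differences of each list over both times, 0 were higher and 20 lower for the embryo and 16 higher and 4 lower for the endosperm, beside 10.9% of all probe set differences called in either direction. The 5 seed coat genes had means between 2.27 and 2.98 in all groups, with 1 higher and 1 lower call. Their part in the differences of the NAC genes was not tested.

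NTL9 was lower in non-dormant seeds in all 4 comparisons at 24 h. In polysomal RNA in water it read 7.30, 7.15 and 7.75 in non-dormant seeds, against 8.77 and 8.65 in dormant seeds (-1.31 ± 0.17, adjusted p = 1.8e-07). In total RNA in water it read 7.47, 7.26 and 7.36 in non-dormant seeds, against 8.27, 8.46 and 8.44 in dormant seeds (-1.03 ± 0.15, adjusted p = 1.98e-06). No array of the 2 seed kinds overlapped. In cordycepin the differences were -0.81 ± 0.19 in polysomal and -0.998 ± 0.15 in total RNA, and the first of these was lost without the first polysomal array of dormant seeds (-0.60, adjusted p = 0.078). At 6 h its 4 differences lay between -0.32 and 0.11, with none called.

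NTL6 was lower in non-dormant seeds in the same 4 comparisons at 24 h, by 1.07 and 1.02 in polysomal and total RNA in cordycepin and by 0.96 and 0.88 in water. In total RNA in cordycepin it read 7.22, 7.25 and 7.06 in non-dormant seeds, against 8.22, 8.12 and 8.24 in dormant seeds (adjusted p = 7.5e-05). The polysomal call in cordycepin was lost without the second array of the non-dormant group (-0.73, adjusted p = 0.078). In polysomal RNA in water NTL6 was already lower at 6 h, at 8.82, 8.21 and 8.68 in non-dormant seeds against 9.19, 8.92 and 9.53 in dormant seeds (-0.64 ± 0.19, adjusted p = 0.035). That call was lost without the second (-0.46) or the third (-0.70) non-dormant array or the first (-0.66) or the third (-0.49) dormant one. The other NTL6 means at 6 h were also lower in non-dormant seeds, with no call. Total RNA in water gave 8.22 against 8.68. In cordycepin, total RNA gave 8.45 against 8.86 and polysomal RNA 8.95 against 9.44. Only the last of these pairs had overlapping arrays.

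ANAC060 was lower in total RNA of non-dormant seeds in water at 24 h (-0.51 ± 0.17, adjusted p = 0.028), with 7.30, 7.07 and 7.29 in non-dormant and 7.83, 7.51 and 7.85 in dormant seeds. It stood between -0.46 and -0.43 and above the threshold without the second non-dormant array or the first or the third dormant one. The 4 differences of ANAC089 at 24 h, -0.55 to -0.46, all had an unadjusted p under 0.05. None passed the correction in the model without a replicate term. ANAC013 and ANAC017 had no called difference between the seed kinds, with fitted values from -0.36 to 0.49 and from -0.26 to 0.33.

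NTM1 was higher in non-dormant seeds in cordycepin at 6 h, and no other of the 8 genes was called higher there or elsewhere. In total RNA it read 5.33, 5.37 and 5.18 in non-dormant seeds, against 3.57, 3.904 and 4.01 in dormant seeds (1.46 ± 0.37, adjusted p = 0.015). In polysomal RNA it read 5.80, 5.17 and 6.22 in non-dormant seeds, against 4.11, 4.09 and 4.91 in dormant seeds (1.35 ± 0.37, adjusted p = 0.033). Neither pair of groups overlapped, yet both calls needed single arrays: the first was lost without the first or second non-dormant array (1.44 and 1.42) or the first dormant one (1.33), the second without the first or the third non-dormant array (1.32 and 1.11) or the first or second dormant one (1.22 in both cases). In water at 6 h the fitted differences were 0.80 and 0.52 in polysomal and total RNA, neither called.

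**Figure D3:**
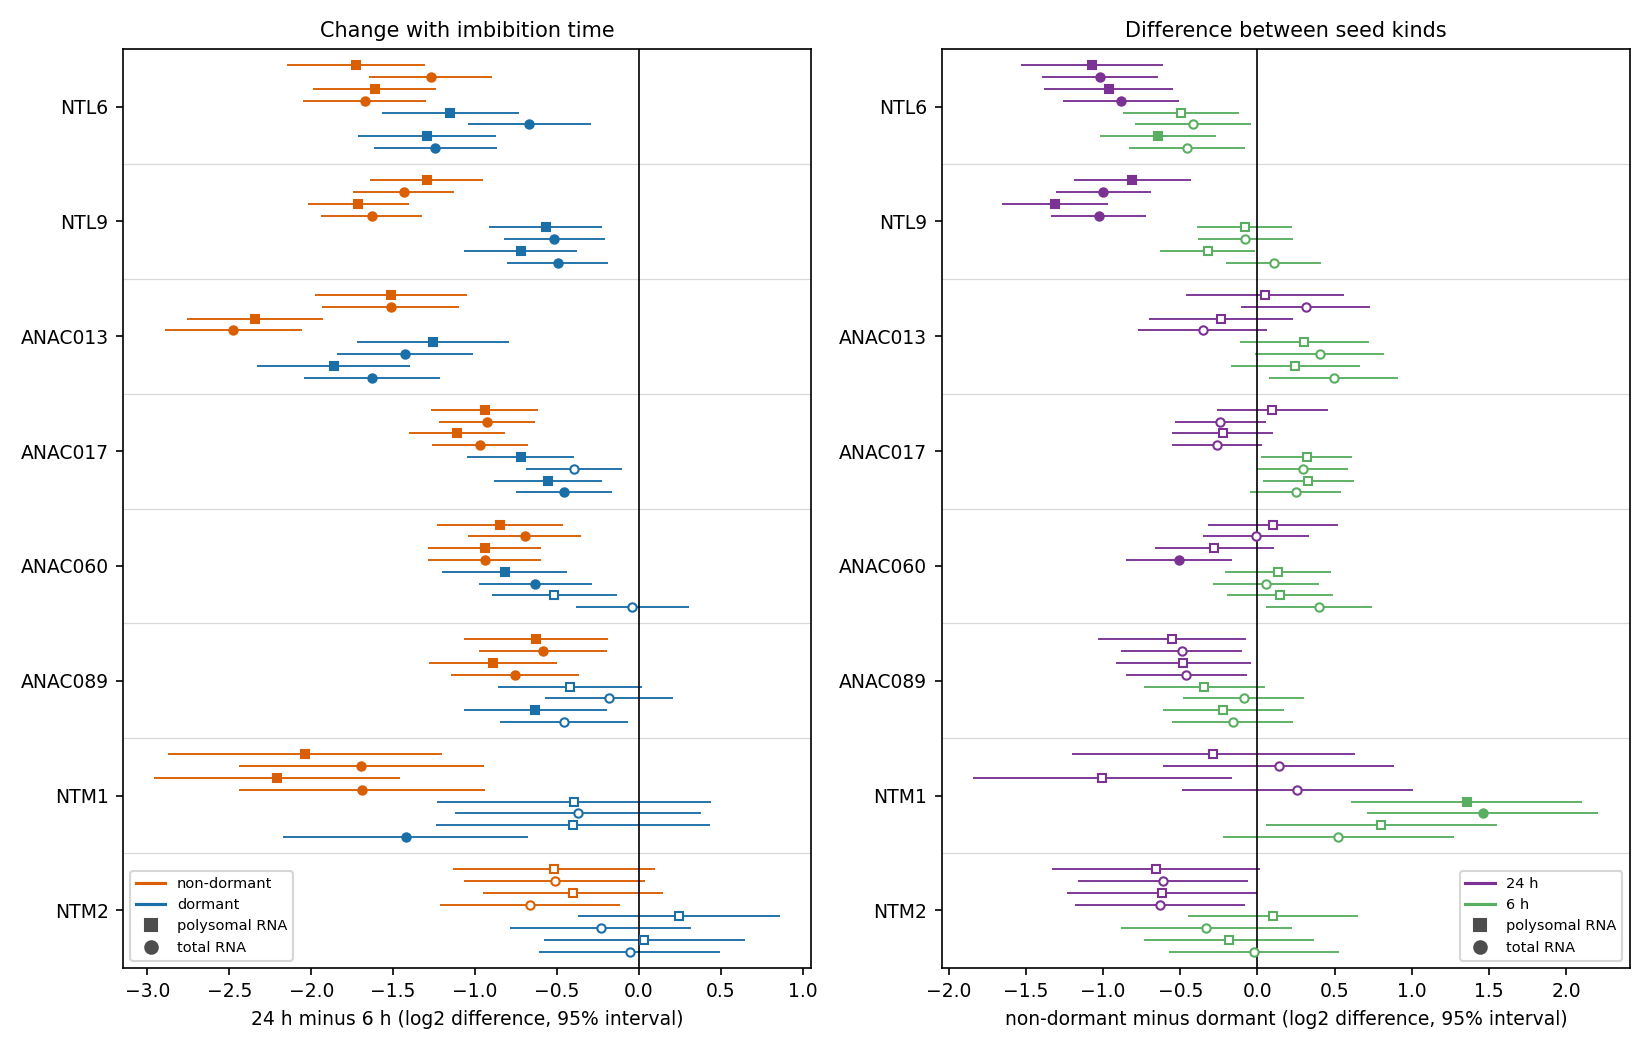
Differences (log2, horizontal axes) of the 8 other genes between 24 h and 6 h (left, non-dormant in orange, dormant in blue) and between non-dormant and dormant seeds (right, 24 h in purple, 6 h in green), with 95% intervals. Squares are polysomal and circles total RNA, filled where called by limma, and within each colour the upper pair is cordycepin and the lower pair water; all called differences on the left lie below 0, and on the right those of NTL6 and NTL9 at 24 h lie around -1.

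Whether the fall in time differed between the seed kinds was tested as an interaction, the seed kind difference at 24 h minus that at 6 h. All 32 fitted values of the 8 genes lay below 0, beside 57844 of 111308 over all probe sets. Of the 32, 5 were called lower and 0 higher, beside 3.4% and 4.02% of all probe set differences. An unadjusted p under 0.05 was reached by 13, beside 20711 of the 111308. With a replicate block within RNA type more than these 5 were called, as given under the processing below. Among the 5 calls, NTL9, ANAC060 and NTM1 were the genes. NTL9 accounts for 3 of the 5 calls: -1.14 ± 0.21 in total RNA in water (adjusted p = 0.000297), -0.99 ± 0.23 in polysomal RNA in water (0.0033) and -0.92 ± 0.21 in total RNA in cordycepin (0.0043). ANAC060 gave -0.90 ± 0.24 in total RNA in water (0.011), where its dormant seeds had 7.83, 7.51 and 7.85 at 24 h and 7.81, 8.06 and 7.43 at 6 h. NTM1 gave -1.81 ± 0.55 in polysomal RNA in water (0.037), a call lost without the second non-dormant array at 24 h or the third at 6 h (-1.50 and -1.51), without either dormant array at 24 h (-1.88 and -1.73), or without the first or second dormant array at 6 h (-1.70 and -1.71). The NTM1 call was also lost after quantile normalization over all arrays (-1.60, limma adjusted p = 0.059) and with array weights (-1.62, 0.058). With the compared arrays alone, the polysomal NTL9 call (limma adjusted p = 0.0997) and the ANAC060 call (0.057) were lost at unchanged size. The 32 values share arrays in part and are not independent. The 4 NTL8 values of this kind, -2.30 to -0.9997, are a description. Of the other interactions, that of seed kind with cordycepin called 0 of 32 (2 at an unadjusted p under 0.05), beside 0.124% of all, and that of seed kind with RNA type 0 of 32 (1 unadjusted), beside 0.00449%. Over all probe sets 6191 and 5153 of 111308 had an unadjusted p under 0.05 in these 2 interactions.

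Cordycepin at 6 h called 0 of 32 differences of the 8 genes in limma, with 0 at an unadjusted p under 0.05, beside 0.08% of all probe set differences called. At 24 h 3 of 32 were higher and 0 lower in cordycepin, beside 0.959% and 0.917%, and 8 had an unadjusted p under 0.05. Over all probe sets 8485 of 111308 had such a p at 6 h and 12222 at 24 h. Of the 3 calls, 2 were of ANAC013. In total RNA of non-dormant seeds it read 8.83, 9.04 and 8.97 in cordycepin, against 7.80, 7.89 and 8.04 in water (1.04 ± 0.21, adjusted p = 0.0015, 2.05-fold). In polysomal RNA it read 9.27 and 8.77 in cordycepin, against 8.29, 7.89 and 8.44 in water (0.82 ± 0.23, adjusted p = 0.044), which was lost without either cordycepin array (0.57 and 1.06) or without the first or second water array (0.86 and 0.66). In dormant seeds the fitted values were 0.53 and 0.37 in polysomal and total RNA, neither called. The remaining call was NTL6 in total RNA of dormant seeds, at 8.22, 8.12 and 8.24 in cordycepin against 7.63, 7.31 and 7.35 in water (0.76 ± 0.19, adjusted p = 0.027). It was lost without any 1 of the cordycepin arrays (0.75, 0.80 and 0.74) or without the second or the third water array (0.70 and 0.72). Without the third cordycepin array of this group the number of calls for the 8 genes fell to 1. The interaction of cordycepin with time, added after the values were seen, called 0 of 32 (4 unadjusted), beside 0.34% of all (7816 of 111308 unadjusted).

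Among 8 genes known to respond to mitochondrial stress through ANAC017 or ANAC013, 5 of 32 differences in cordycepin at 24 h were higher and 0 lower, beside 0.959% and 0.917% of all probe set differences. AOX1A, the alternative oxidase, read 4.51, 4.56 and 4.66 in total RNA of non-dormant seeds in cordycepin, against 2.16, 2.47 and 2.51 in water (2.20 ± 0.30, adjusted p = 7.9e-06). It was also higher in polysomal RNA of non-dormant (2.37 ± 0.34) and dormant seeds (1.93 ± 0.37). Its group means in water at 24 h, 2.38 in total RNA of non-dormant seeds and 2.68 and 1.98 in polysomal RNA of non-dormant and dormant seeds, lay within or below the range of the lower quartiles of the arrays. The values carry no detection call, so whether AOX1A was above background there is not known and its fold differences are uncertain. UGT74E2, a glucosyltransferase of the auxin indole-3-butyric acid, was higher in both RNA types of non-dormant seeds, with 8.32, 8.16 and 8.23 in total RNA in cordycepin against 6.22, 6.08 and 6.05 in water (2.12 ± 0.23, adjusted p = 8.6e-08). For UGT74E2 in total RNA the response differed between the seed kinds by 1.89 ± 0.33 (adjusted p = 0.0021), and in dormant seeds its groups read 6.61, 5.81 and 5.44 in cordycepin and 5.88, 5.70 and 5.59 in water. The rest of the 8, UPOX, OM66, AT5G09570, SOT12, NDA2 and NDB4, had no called difference in cordycepin at 24 h. In time the list did not share the fall of ANAC013. In non-dormant seeds 6 of its 32 differences were higher at 24 h and 6 lower, beside 16.3% and 15% of all. In dormant seeds 1 was higher and 5 lower, beside 8.7% and 7.18%. Between the seed kinds at 24 h, where ANAC013 had no call, 7 of 32 were higher in non-dormant seeds and 4 lower, beside 9.61% and 7.62%.

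**Figure D4:**
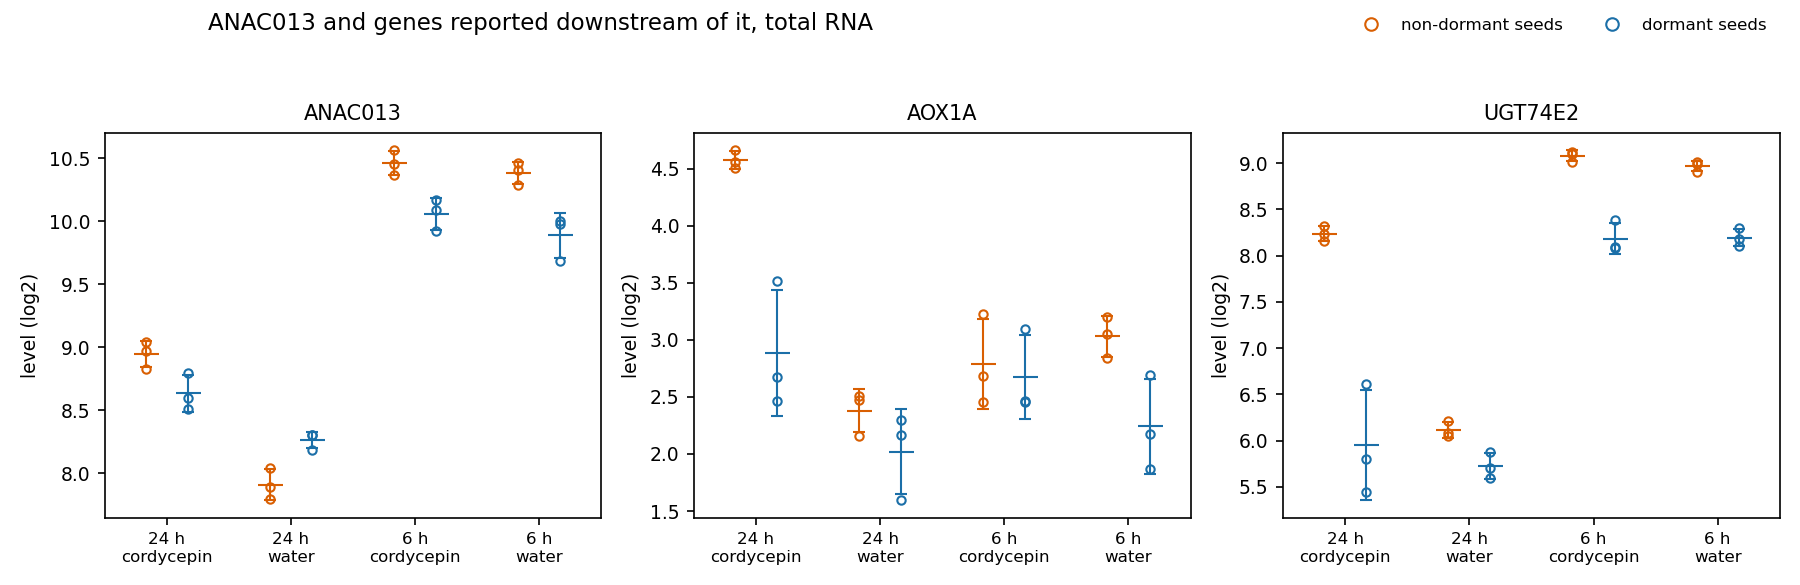
Levels (log2, vertical axes, each with its own range) of ANAC013, AOX1A and UGT74E2 in total RNA for each time and treatment, with non-dormant seeds in orange and dormant seeds in blue. Circles are the 3 arrays of a group, long ticks means and bars ± 1 SD; at 24 h the non-dormant arrays in cordycepin lie above those in water in all 3 panels.

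Where RNA types were called apart, the 8 genes were higher in polysomal than in total RNA, on the scale of the deposited values. Of 64 differences 16 were higher in polysomal RNA and 0 lower, beside 9.95% and 10.2% of all probe set differences. Of the fitted values 63 of the 64 were above 0, while 101450 of 222616 over all probe sets were below 0. ANAC017 gave 6 of the calls, ANAC060 5, NTL6 3, and NTL9 and NTM1 1 each. ANAC017 in non-dormant seeds in cordycepin at 6 h read 8.89, 9.06 and 8.85 in polysomal RNA, against 8.23, 8.36 and 8.32 in total RNA (0.63 ± 0.14, adjusted p = 0.0014). ANAC060 in dormant seeds in water at 6 h read 8.46, 8.83 and 8.54 in polysomal RNA against 7.81, 8.06 and 7.43 in total RNA (0.84 ± 0.17, adjusted p = 0.000414). The scaling mattered: after quantile normalization over all arrays, or after cyclic loess, 7 of 64 were called and 54 fitted values were above 0, where 7.92% and 7.44% of all probe set differences were called higher. The count of 7 is close to those shares. ANAC017 in non-dormant seeds in cordycepin at 6 h was the 1 call of these 16 kept under every alternative, at 0.42 after cyclic loess.

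A further 5 NAC genes reported to be membrane-bound were followed as a set listed with earlier results known. Between the seed kinds at 24 h, non-dormant seeds were higher in 4 of their 20 differences and lower in 5, beside 9.61% and 7.62% of all probe set differences. NAC053, a regulator of the proteasome stress response, was higher in non-dormant seeds in all 4 (1.00 to 1.19). In total RNA in water it read 8.20, 7.90 and 8.13 in non-dormant seeds, against 6.95, 6.96 and 7.33 in dormant seeds (1.00 ± 0.20, adjusted p = 1.9e-04). TIP, named for its binding to a viral coat protein, was lower in all 4 (-0.90 to -0.60), with 6.29, 6.47 and 6.26 in non-dormant and 7.24, 7.43 and 7.04 in dormant seeds in total RNA in water (-0.90 ± 0.14, adjusted p = 9.3e-06). NAC014 was lower in total RNA in water (-0.73 ± 0.22, adjusted p = 0.014).

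In time these 5 genes had 1 higher and 13 lower of 20 in non-dormant seeds, where 16.3% and 15% of all were called, and 0 higher and 10 lower of 20 in dormant seeds, where 8.7% and 7.18% were. NAC078, the close relative of NAC053, was lower at 24 h in all 8 comparisons, by 0.96 to 0.88 in non-dormant and by 0.91 to 0.68 in dormant seeds. NAC053 itself was higher at 24 h in total RNA of non-dormant seeds in cordycepin (0.53 ± 0.20, adjusted p = 0.036) and lower in polysomal RNA of dormant seeds in water (-0.63 ± 0.22, adjusted p = 0.049). NAC016, which lies next to ANAC017 on the chromosome, was low, with group means of 2.28 to 3.61 in the 5 comparisons where it was called lower. Among the 87 remaining NAC genes of the array, 31 of 348 differences in time in non-dormant seeds were higher and 58 lower at 24 h, and in dormant seeds 3 were higher and 34 lower, with medians of -0.17 and -0.15. The lower calls are 16.7% and 9.77% of the differences, near the 15% and 7.18% of all probe sets, and the higher ones 8.91% and 0.862%, below the 16.3% and 8.7% of all. Between the seed kinds at 24 h non-dormant seeds were higher in 38 of their 348 and lower in 17, or 10.9% and 4.89%, beside 9.61% and 7.62% of all.

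The 10 genes reported downstream of NTL8, NTM1, NTM2 or NTL6 had call counts near or below the shares of all probe sets in time and between seed kinds at 24 h. In non-dormant seeds 6 of 40 differences were higher at 24 h than at 6 h and 1 lower, beside 16.3% and 15% of all, and in dormant seeds 1 was higher and 2 lower, beside 8.7% and 7.18%. Between the seed kinds at 24 h 4 of 40 were higher and 0 lower, beside 9.61% and 7.62%. Between polysomal and total RNA 6 of 80 were higher and 14 lower, or 25% called, beside 20.2% of all. The lower ones were 6 of FT, 5 of KRP2 and 3 of VIN3, with FT at -1.82 ± 0.33 in non-dormant seeds in water at 6 h (adjusted p = 0.00011) and KRP2 at -1.40 ± 0.23 in non-dormant seeds in cordycepin at 6 h (adjusted p = 2.7e-05). TRY, a repressor of trichome fate that NTL8 activates, was higher at 24 h in non-dormant seeds in water, by 0.99 ± 0.28 in both polysomal and total RNA (adjusted p = 0.0054 and 0.0061). Its relative TCL1 and the flowering gene VIN3 had no called difference in time or between the seed kinds, and FT, the floral signal that NTL8 represses, was lower at 24 h in total RNA of non-dormant seeds in water (-0.91 ± 0.33, adjusted p = 0.030). KRP2 and KRP7, inhibitors of cyclin-dependent kinases linked to NTM1, were higher in non-dormant seeds at 24 h in 2 comparisons each, KRP2 in polysomal RNA (1.04 ± 0.29 in cordycepin, 1.02 ± 0.26 in water) and KRP7 in water (1.05 ± 0.26 in polysomal, 1.11 ± 0.23 in total RNA). IAA30, through which NTM2 is linked to auxin, was higher at 24 h in total RNA of non-dormant seeds in water (1.40 ± 0.50, adjusted p = 0.027) and in polysomal RNA of dormant seeds in water (1.89 ± 0.55, adjusted p = 0.016). PR1, a target of NTL6 in leaves, read lower in total RNA of non-dormant seeds in water at 6 h than in that of dormant seeds (-0.52 ± 0.16, adjusted p = 0.038), at a level of about 1.47 against 1.997 that is under the lower quartile of the arrays.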

How the data were processed

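The 9 genes were read from arrays of imbibed seeds, grouped by the sample titles. The authors deposited log2 values made with RMA, per the submitters' processing notes, whose version is not stated; the sources used here name neither the array nor how its probe sets were defined. Of 27827 probe sets named by locus, 27241 were found in the RefSeq annotation of TAIR10.1, used for names and neighbours. No 2 arrays held the same values (highest correlation 0.986), and nothing was filtered or normalized further.

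A single linear model, with a mean per group for all 16 groups and no term for replicate number, was fitted in limma 3.58.1 (R 4.3.3). All 45 arrays thus share an estimate of the spread (29 residual and 6.39 prior degrees of freedom), and a p-value reflects more than the bulks it compares. Benjamini-Hochberg adjustment ran over all probe sets in each comparison. Seed kinds, times, treatments and RNA types were compared in pairs, then by interactions; the number of arrays limits the precision. The fit was tested on simulated data with independent noise for every array and changes with time put into total RNA only. Such data cannot show how it handles deviations shared between polysomal arrays.

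The 9 genes and the gene lists were chosen with earlier results of these data known. NTL8 was not tested between seed kinds or on arrays in water at 6 h. Also named are the 6 probe sets with a symbol that correlate most with NTL8 over group means (1 of them is not reported here) and, from each list, up to 4 called genes with the largest difference; TCL1, VIN3, OM66, AT5G09570, SOT12 and NDB4, which were not called there, complete a count. Alternatives were the compared arrays alone, quantile normalization over all arrays or within RNA type, cyclic loess, trend and robust estimation, array weights, a filter on dim probe sets, a replicate block and leaving out each array.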

Additional observations from a re-analysis of the deposited data

Results flagged for a closer look

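For 20 results a difference itself differed between settings, by the interaction test in limma at an adjusted p under 0.05, of which 5 concern the 9 genes. For seed kind with time these were 5 of 32 for the 8 genes and 3 of 20 for the further membrane-bound genes. The mitochondrial stress genes had 4 of 32 and the downstream genes 2 of 40, beside 7.42% of all. The mitochondrial stress genes also had 5 of 32 for cordycepin with time, beside 0.34%, and 1 of 32 for seed kind with cordycepin, beside 0.124%. All are values of the comparisons above, without an explanation.

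The seed kind difference at 24 h minus that at 6 h was -1.14, -0.99 and -0.92 for NTL9 (total RNA in water, polysomal RNA in water, total RNA in cordycepin), -1.81 for NTM1 (polysomal RNA in water) and -0.90 for ANAC060 (total RNA in water). It was -1.19 for NAC014 in total RNA in water, and -0.82 and -0.75 for TIP in total RNA in water and polysomal RNA in cordycepin. In total RNA in cordycepin it was 1.57 for AOX1A, 1.76 for UPOX, 1.39 for UGT74E2 and -1.46 for NDA2, an alternative NADH dehydrogenase of mitochondria. In water it was 1.19 for KRP2 in polysomal RNA and 1.41 for KRP7 in total RNA.

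The seed kind difference in cordycepin minus that in water was 1.89 for UGT74E2 in total RNA at 24 h. The cordycepin difference at 24 h minus that at 6 h was 2.44 and 2.45 for AOX1A in total and polysomal RNA of non-dormant seeds and 2.90 in polysomal RNA of dormant seeds, where the water arrays read 2.02 and 1.94 at 24 h and 4.47, 4.28 and 3.85 at 6 h. The values at 24 h are under the lower quartiles of all arrays, so the size of that interaction is uncertain. For UGT74E2 it was 2.01 and 1.56 in total and polysomal RNA of non-dormant seeds. No group could be examined for an array far from the others, since none had more than 3 arrays.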

How the results depend on the processing

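The counts of called differences are for the 8 genes other than NTL8 unless stated. No called difference changed sign under any alternative. Of 86 called differences of the 9 genes, 47 were called under every alternative and 39 were lost under at least 1: 16 between RNA types, 12 in time, 6 between seed kinds, 3 in the interaction of seed kind with time and 2 in cordycepin. A fit of the compared arrays alone, with far fewer residual degrees of freedom, lost 34 of the 86, leaving out 1 array lost 30, quantile normalization over all arrays and cyclic loess 15 each, and quantile normalization within RNA type and array weights 1 each. Calls of the listed genes were recomputed too. For the 9 genes and the lists together, leaving out 1 array lost the call in 306 recomputed values, beside 1169 that did not weaken. The other alternatives lost it in 209, beside 1939. The values that did not weaken include the 8 seed kind differences of NTL8, which were followed for size and had no call to lose. Of the losses 91 and 66 were of the 9 genes. The calls of the listed genes are given above without this limit for each gene.

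Between seed kinds 12 calls became 23 with a replicate block within RNA type, and 11 to 13 leaving out 1 array. In time 47 became 45 to 48 leaving out 1 array. Between RNA types 16 became 2 with the compared arrays alone, 7 with quantile normalization over all arrays, 7 with cyclic loess, and 14 to 16 leaving out 1 array. In cordycepin 3 became 1 with the compared arrays alone, 5 with quantile normalization within RNA type, 5 with trend and robust estimation, 5 with array weights, 5 with the filter on dim probe sets (18187 probe sets kept), 5 with the block within RNA type, and 1 to 4 leaving out 1 array. The interaction of seed kind with time went to 11 with that block, against 5 without it, and 4 to 7 leaving out 1 array; those of seed kind with cordycepin and with RNA type stayed at 0, leaving out 1 array included. The interaction of cordycepin with time, 0, became 1 with the compared arrays alone, 1 with array weights, 2 with the block within RNA type, and 0 leaving out 1 array. NTL8, with 3 calls, had 2 to 5 leaving out 1 array (5 without the first polysomal array of dormant seeds in cordycepin at 24 h). The causes were not tested.

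Replicate numbers were not taken to pair the arrays, although polysomal arrays of 1 number shared deviations. The counts in the main text come from the model without a replicate term. The median correlation of deviations between arrays of 1 number was 0.016 in total RNA and 0.263 in polysomal RNA, with 27 of 28 polysomal group pairs over 0.1. A replicate block over all arrays gave 13 calls between seed kinds, 48 in time, 4 in cordycepin, 17 between RNA types and 6 in the interaction of seed kind with time. The largest shift of a comparison's median over all probe sets was 0.129, between 24 h and 6 h.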
